A study of Mus musculus with 20 samples.

Results

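The sarcomere and Z-disc genes described here were 38 mouse genes chosen by symbol and matched to the Ensembl gene IDs of the expression table, which holds 31874 genes. They comprised 8 genes of the thick filament, 10 of the thin filament, 4 of titin and the M-band, 9 of the Z-disc, 2 for desmin and dystrophin, and 5 for sarcomere assembly and turnover. All 38 were in the table, and 37 averaged 0.1 FPKM or more across the 20 hearts, the minimum for testing. FPKM are fragments per gene scaled to exon length and to the library's total of assigned fragments. The exception was Tnni1, the slow skeletal troponin I of the fetal heart, which was listed at 0 to 0.35 FPKM in the 20 hearts.

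RNA-seq was performed on myocardium of isolated hearts from mice aged 3 months, 5 hearts in each of 4 groups. Fat1-IR hearts came from *fat-1* transgenic mice and WT-IR hearts from wild-type C57BL/6J mice, and on the Langendorff apparatus both had 40 min of equilibration, 20 min of ischemia and 60 min of reperfusion (IR). Fat1-Con hearts (*fat-1* transgenic) and WT-Con hearts (C57BL/6J) were perfused continuously for 120 min, so every heart had been removed and perfused *ex vivo*, the controls included. The *fat-1* gene encodes a *Caenorhabditis elegans* desaturase that converts n-6 into n-3 polyunsaturated fatty acids; which promoter drives the transgene was not stated in the sources read. The labels call the 5 hearts of a group independent samples and do not say whether littermates were shared.

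The sarcomere is the contractile unit of striated muscle. Myosin of the thick filament pulls on actin of the thin filament, calcium gates this pull through troponin and tropomyosin, titin spans from the Z-disc to the M-band as a spring, and α-actinin anchors the actin filaments at the Z-disc. Desmin links neighboring Z-discs and dystrophin couples the cytoskeleton to the cell membrane, while ubiquitin ligases and chaperones remove or fold worn myofilament proteins. In the adult mouse ventricle the main myosin heavy chain is α (Myh6), and a shift toward the fetal β form (Myh7) is a long-known feature of the stressed heart.

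The depth was 15626847 to 25993336 fragments assigned to genes per heart. Cardiomyocyte genes outside the sarcomere, such as Ryr2 and Pln, had a mean of 7.28 to 7.73 on the log2 scale. Skeletal muscle markers had -1.79 to -0.98, which fits heart tissue, whereas atrial markers ranged widely, from 0.82 to 4.51. Some libraries stood apart. WT-Con 5 and Fat1-IR 1 had 15.1% and 13.9% of their fragments from the mitochondrial genome, against 28.4% to 39.3% in the other 18 hearts, and Fat1-IR 4 had more RNA of lymphocyte and neutrophil markers than any other heart. The counts of members called and the sign counts with IR are therefore also given without WT-Con 5 and Fat1-IR 1. In bulk tissue, fewer cardiomyocytes and less mRNA per cardiomyocyte cannot be told apart. Markers of fibroblasts (median log2 fold change of 6 genes 0.61), endothelium (0.45) and macrophages (0.33) were higher in WT-IR than in WT-Con hearts. Of the 6 genes of each list, 1, 2 and 1 were called higher, beside 2.01% of all genes. In Fat1-IR against Fat1-Con hearts the medians of these 3 lists were also above 0 (0.42, 0.27 and 0.22). There 1, 2 and 1 of the 6 markers lay below 0, and 0 were called (1.3% of all genes were called higher). The part of these markers in the sarcomere values was not tested.

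The 3 myosin heavy chain genes of the list each hold a microRNA in an intron (0 annotated exons of the host overlap the hairpin), and these microRNAs are printed because their seeds tie the genes together. The libraries did not measure mature microRNAs. The capitals mark the seed, bases 2 to 8 of the mature strand (sequences and positions from RefSeq, GRCm38.p6): miR-208a-3p lies in Myh6 at chr14:54949072-54949093, miR-208b-3p in Myh7 at chr14:54975710-54975731, and miR-499-5p in Myh7b at chr2:155622893-155622913.
mmu-miR-208a-3p: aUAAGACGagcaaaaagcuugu
mmu-miR-208b-3p: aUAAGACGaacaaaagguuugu
mmu-miR-499-5p: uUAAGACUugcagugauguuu
The miR-208a and miR-208b seeds are the same, and the miR-499 seed shares all but its last base with them.

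The promoters of Lmod2, Des and Actn2 are shown because these members had the smallest adjusted p in WT-IR against WT-Con hearts. The windows run from 250 bases before to 50 after the RefSeq start site (GRCm38.p6), and the capitals mark E-boxes (CANNTG, which reads the same on both strands). Lmod2 is at chr6:24597521-24597820 (+ strand), Des at chr1:75360042-75360341 (+ strand) and Actn2 at chr13:12340683-12340982 (- strand).
Lmod2: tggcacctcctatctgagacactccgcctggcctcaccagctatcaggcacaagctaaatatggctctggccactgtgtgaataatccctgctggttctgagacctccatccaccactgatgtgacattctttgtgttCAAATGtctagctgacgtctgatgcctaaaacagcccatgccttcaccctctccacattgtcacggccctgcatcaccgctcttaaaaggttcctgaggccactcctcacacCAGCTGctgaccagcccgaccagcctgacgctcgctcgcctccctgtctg
Des: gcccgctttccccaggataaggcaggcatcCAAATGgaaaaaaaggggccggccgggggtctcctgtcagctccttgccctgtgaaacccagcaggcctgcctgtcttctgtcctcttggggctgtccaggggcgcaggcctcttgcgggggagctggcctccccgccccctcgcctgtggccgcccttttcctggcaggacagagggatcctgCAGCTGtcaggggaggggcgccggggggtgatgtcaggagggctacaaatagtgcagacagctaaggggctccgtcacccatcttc
Actn2: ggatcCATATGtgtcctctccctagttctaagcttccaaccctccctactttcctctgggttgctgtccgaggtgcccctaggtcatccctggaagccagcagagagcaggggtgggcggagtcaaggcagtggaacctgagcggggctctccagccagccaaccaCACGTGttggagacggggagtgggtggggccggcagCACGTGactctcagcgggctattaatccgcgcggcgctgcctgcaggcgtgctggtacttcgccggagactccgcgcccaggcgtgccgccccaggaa
The E-box letters were in 30 of 34 member promoters (88.2%) and in 72.3% of all 32544 promoters of the table. Fbxo32, Myom2, Myot and Tcap have no entry there. Sites for the muscle factors MEF2 and SRF (the CArG box), searched on both strands, were in 14.7% and 20.6% of member promoters, against 1.86% and 1.64% of all promoters, but in none of the 3 above. The only member with both was Dmd, whose window at chrX:82948620-82948919 (+ strand) holds the MEF2 site first and the CArG box after it, in capitals, without overlap.
Dmd: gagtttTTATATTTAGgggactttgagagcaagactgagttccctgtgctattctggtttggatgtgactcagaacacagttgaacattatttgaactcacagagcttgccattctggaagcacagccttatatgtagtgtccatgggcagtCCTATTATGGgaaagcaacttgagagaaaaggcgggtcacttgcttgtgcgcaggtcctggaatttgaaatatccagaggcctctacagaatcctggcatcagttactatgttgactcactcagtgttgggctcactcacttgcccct
The M-CAT letters CATTCC were in 29.4% of member promoters and 14.6% of all, and the heat shock element GAANNTTC in 0 of 34 member promoters and 7.89% of all. These matches are a description of the windows and not of bound sites.

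On the FPKM scale, which is per exon length, levels differed widely between members. Cardiac actin Actc1 (3876 to 7095 FPKM over the 20 hearts), the ventricular light chain Myl2 (2382 to 7962 FPKM) and Myh6 (2010 to 3944 FPKM) were highest, and Dmd (1.71 to 6.48 FPKM) and the tropomyosin Tpm2 (3.20 to 13.2 FPKM) were lowest among the tested members. Together the members took up 6.19% to 12.0% of all fragments. The highest shares belonged to WT-Con 5 (12.0%) and Fat1-IR 1 (10.4%), the hearts with a low mitochondrial share, and the next to WT-IR 4 (8.15%, with a mitochondrial share of 28.4%). Of the fragments outside the mitochondrial genome, the members took 14.1% in WT-Con 5, 12.1% in Fat1-IR 1 and 11.4% in WT-IR 4, still more than in any other heart (9.94% to 11.1%).

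Few of these genes were lower with IR in wild-type hearts, and none passed the thresholds in *fat-1* hearts. In WT-IR against WT-Con, 2 of 37 tested members were called lower (Lmod2 and Des) and 0 higher, at an adjusted p under 0.05 (limma, Benjamini-Hochberg over 18219 genes) and a fold change over 1.5. Over all genes tested, 1.19% were called lower and 2.01% higher. In Fat1-IR against Fat1-Con, 0 members were called in either direction, where 0.703% of all genes were called lower and 1.3% higher. At an unadjusted p under 0.05, 6 members passed in WT hearts and 3 in *fat-1* hearts, beside 14.9% and 12.5% of all genes, so the number of members that moved was near the background. The side they lay on was less even. The fold change was below 0 for 30 of 37 members in WT hearts (median log2 -0.20, all genes 0.04) and for 15 of 37 in *fat-1* hearts (median 0.07, all genes 0.08). With WT-Con 5 and Fat1-IR 1 left out, 23 of 37 members were below 0 in WT hearts (median -0.15, all genes 0.06) and 21 of 37 in *fat-1* hearts (median -0.06, all genes 0.02), so the *fat-1* median changed sign. The sign counts also moved with the scaling. With FPKM rescaled without the mitochondrial genome, 22 of 37 members were below 0 in WT hearts (median -0.07) and 19 of 37 in *fat-1* hearts (median -0.00), while the median of all genes in WT hearts moved to 0.16. The distance between the members' median and that of all genes in WT hearts was -0.24 as deposited and -0.23 on that scale. Over all genes, the calls in WT hearts split into 367 higher and 216 lower as deposited, 214 and 207 on the TPM scale, and 595 and 159 without the mitochondrial genome.

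**Figure D1:**
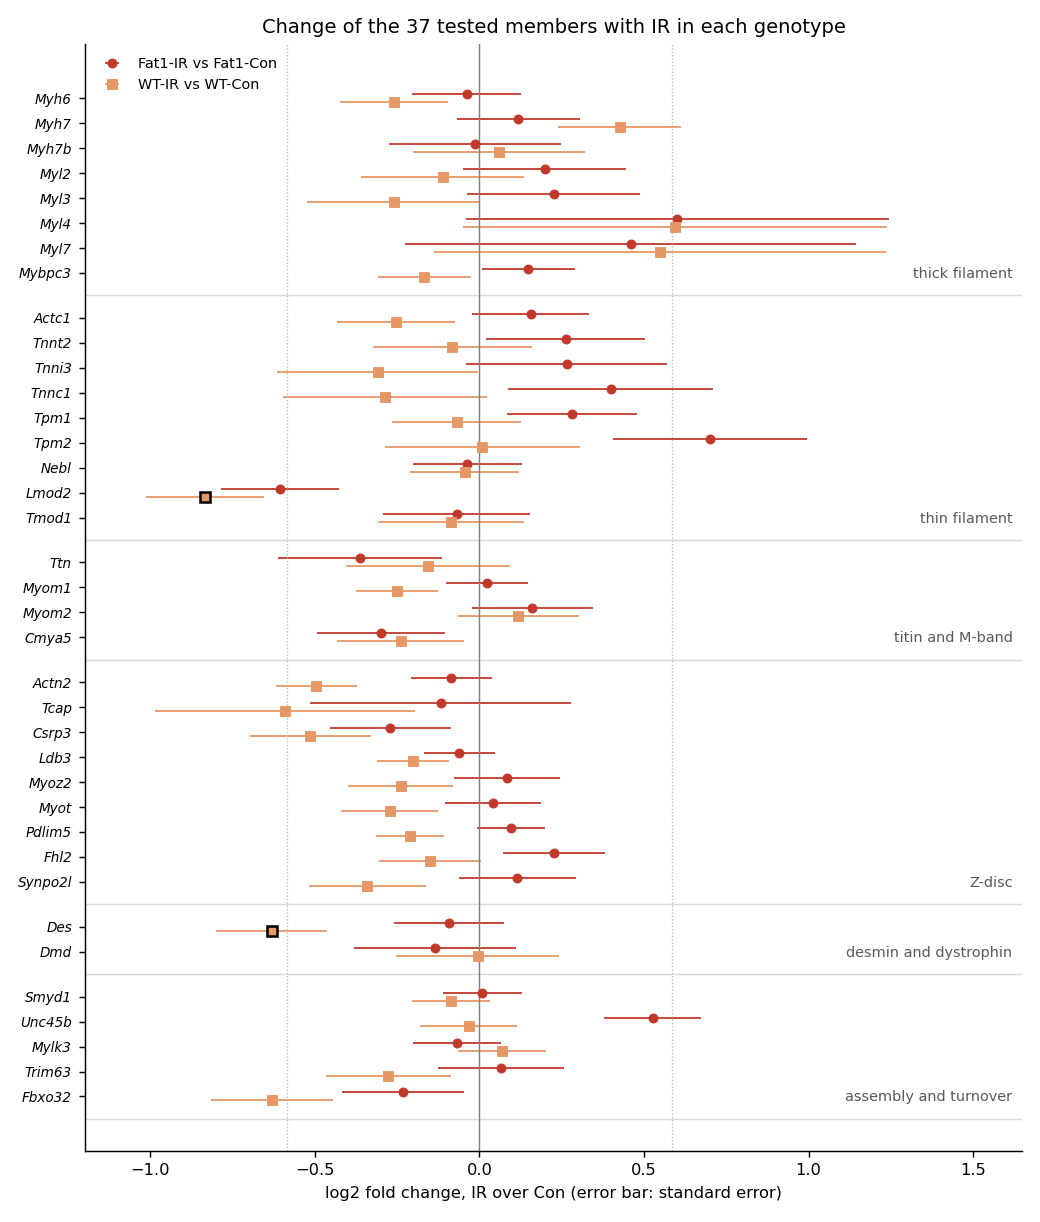
Log2 fold change (x axis, IR over Con) of the 37 tested members by role (y axis), with circles for Fat1-IR vs Fat1-Con and squares for WT-IR vs WT-Con; bars are standard errors (5 hearts a group), dotted lines mark a fold of 1.5 and a black outline marks a called member. Lmod2 lies furthest to the left in both genotypes, and all 9 Z-disc genes lie left of 0 in WT hearts, with WT-Con 5 included.

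Without WT-Con 5 and Fat1-IR 1, 2 members were called lower in WT-IR (Lmod2 and Fbxo32, beside 1.89% of all genes) and 0 higher (2.87% of all genes). In Fat1-IR 1 was called lower (Lmod2, beside 1.13% of all genes) and 0 higher (1.48%). With the fold threshold also dropped, a rule chosen after seeing the data, 0 members were higher (4.97% of all genes) and 9 were lower in WT-IR (3.95% of all genes): Lmod2, Tmod1, Ttn, Myom1, Cmya5, Actn2, Des, Dmd and Fbxo32. In Fat1-IR 1 member, Lmod2, was lower under this rule (1.92% of all genes) and 0 were higher (2.07%). The 9 were spread over filament ends, titin, the M-band, the Z-disc, desmin, dystrophin and the turnover genes, and none was a troponin, a myosin light chain or a myosin heavy chain. Their log2 fold changes in WT-IR lay between -0.92 and -0.31. Apart from Lmod2 (1976 bases), these 9 had long exon lengths, from 3754 (Des) to 116825 bases (Ttn). Tnni3, Tnnc1, Myl2, Myl3 and Myl7 had 590 to 2063 bases, whereas Tnnt2, Myl4 and the myosin heavy chains had 4637 to 8616 bases. The part of exon length in this list was not tested. Averaged over genotypes, the same rule gave 11 members lower (6.78% of all genes), those 9 with Csrp3 and Myh6, and 1 higher (8.63% of all genes), Myl2 at 0.16.

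Among thin filament genes, Lmod2 fell the most. Leiomodin 2 nucleates actin at the pointed end of the thin filament and lengthens it, and its gene lies at chr6:24597762-24605414 (mm10, + strand). Lmod2 had 815, 498, 469, 513 and 605 FPKM in Fat1-IR hearts 1 to 5, against 826, 924, 845, 972 and 770 FPKM in Fat1-Con hearts. It had 399, 504, 408, 646 and 352 FPKM in WT-IR hearts, against 730, 869, 1009, 825 and 637 FPKM in WT-Con hearts. In each genotype the groups overlapped through a single IR heart, Fat1-IR 1 and WT-IR 4, and on the control side through Fat1-Con 5 and WT-Con 5. The log2 fold change was -0.84 (SE 0.18, adjusted p = 0.00969) in WT hearts and -0.61 (SE 0.18, adjusted p = 0.092) in *fat-1* hearts. Averaged over genotypes it was -0.72 (SE 0.13, adjusted p = 0.000953), the only call among the members in that comparison (1.48% of all genes were called lower and 2.86% higher). Without WT-Con 5 and Fat1-IR 1 it was -0.92 (adjusted p = 0.000688) in WT and -0.74 (adjusted p = 0.00637) in *fat-1* hearts. The difference between genotypes in the Lmod2 response was 0.23 (SE 0.25, adjusted p = 0.847), which does not show that the responses were alike.

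**Figure D2:**
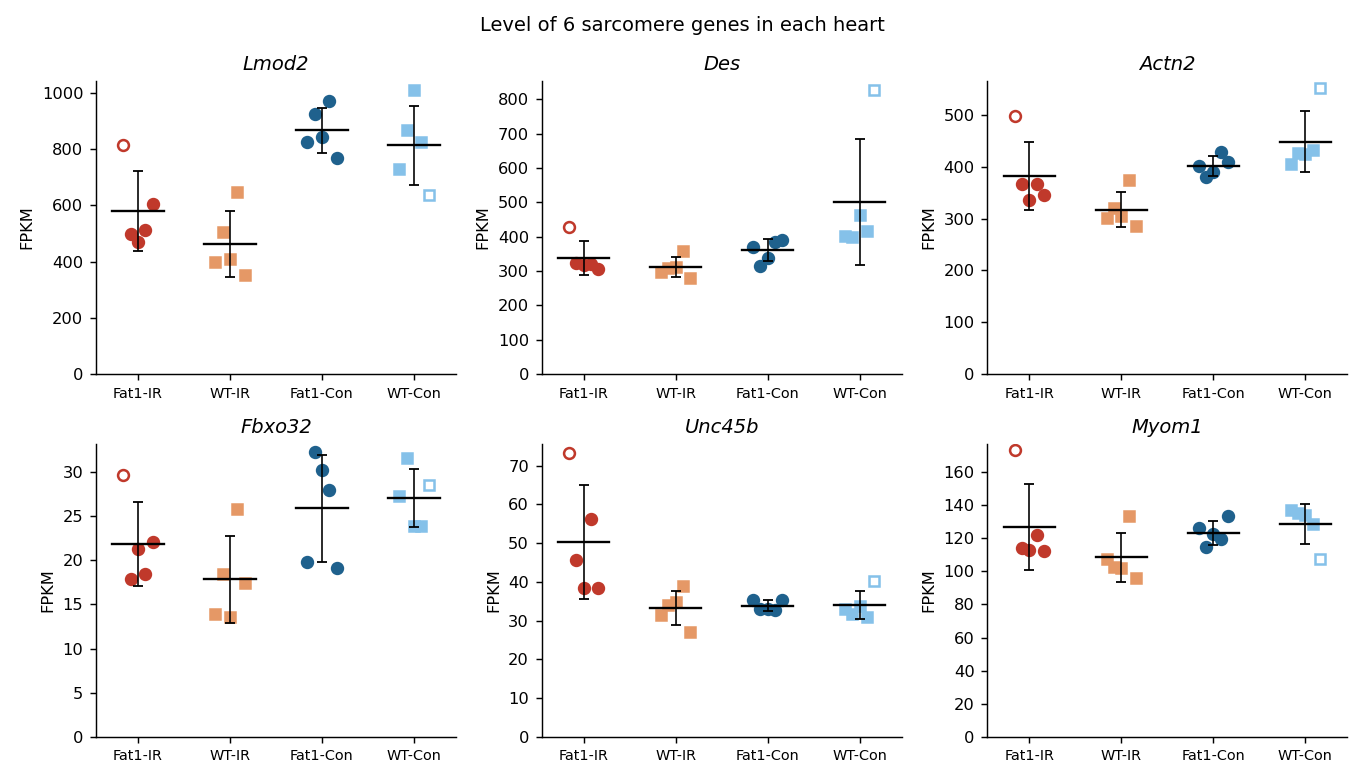
FPKM (y axis, from 0) of Lmod2, Des, Actn2, Fbxo32, Unc45b and Myom1 in each heart of the 4 groups; lines and bars are the mean and SD of 5 hearts, and open symbols are Fat1-IR 1 and WT-Con 5. Des and Actn2 of all 5 WT-IR hearts lie below those of all 5 WT-Con hearts, and Unc45b of all 5 Fat1-IR hearts lies above that of the Fat1-Con hearts.

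The other thin filament genes did not pass. Tropomodulin 1 (Tmod1), which caps the same pointed end, was at 31.3 to 52.1 FPKM in WT-IR and 17.1 to 53.4 FPKM in WT-Con hearts, and the low value was WT-Con 5. Without WT-Con 5 and Fat1-IR 1, Tmod1 had a log2 fold change of -0.39 (adjusted p = 0.0196) in WT hearts, against -0.09 with all hearts. The troponins Tnnt2, Tnni3 and Tnnc1 and the tropomyosin Tpm1 had log2 fold changes between -0.31 and -0.07 in WT and between 0.26 and 0.40 in *fat-1* hearts, and none of them passed in either genotype. These opposite signs rested on the hearts that stood apart. With WT-Con 5 and Fat1-IR 1 left out, Tnnt2, Tnni3, Tnnc1 and Tpm1 lay between 0.10 and 0.17 in WT and between 0.04 and 0.17 in *fat-1* hearts. Tpm2, a minor tropomyosin of the heart, was at 13.2, 5.85, 6.83, 7.85 and 5.14 FPKM in Fat1-IR, against 3.20, 3.39, 5.55, 4.80 and 6.25 FPKM in Fat1-Con hearts, and its difference of 0.70 (SE 0.30) did not pass after adjustment (adjusted p = 0.309).

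At the Z-disc, all 9 genes had a negative log2 fold change in WT-IR (median -0.27) under each scaling tried, and none of the 9 passed both thresholds. Without WT-Con 5 the values of Fhl2 (-0.00) and Myoz2 (-0.04) were close to 0. Actn2, the sarcomeric α-actinin that crosslinks actin filaments, came nearest. It had 300.4, 320.5, 305, 374 and 286 FPKM in WT-IR hearts, against 406, 426, 425, 433 and 552 FPKM in WT-Con hearts, without overlap. Its log2 fold change was -0.50 (SE 0.12, adjusted p = 0.0252), below the fold threshold. In Fat1-IR hearts Actn2 had 497, 366, 335, 367 and 346 FPKM, against 402, 379, 389.9, 428 and 409 FPKM in Fat1-Con hearts, and the log2 fold change was -0.09 (adjusted p = 0.815). The highest Fat1-IR value was that of Fat1-IR 1, without which the Actn2 log2 fold change in *fat-1* hearts was -0.18 (adjusted p = 0.577). The genotype difference in this response, 0.41 (SE 0.17), had an unadjusted p of 0.028 and an adjusted p of 0.831, and it was 0.24 (adjusted p = 0.781) without WT-Con 5 and Fat1-IR 1.

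Csrp3, the muscle LIM protein of the Z-disc, had a log2 fold change of -0.51 (adjusted p = 0.156) in WT and -0.27 (adjusted p = 0.583) in *fat-1* hearts. The Csrp3 level of WT-Con 5 was 1.98 times the geometric mean of the other 4 WT-Con hearts. Without WT-Con 5 the WT value was -0.32 (adjusted p = 0.193). Tcap, the telethonin that caps titin at the Z-disc, varied most from heart to heart among the Z-disc members. Its values were 609, 849, 697, 1262 and 1086 FPKM in WT-IR, against 589, 1026, 923, 1407 and 4869 FPKM in WT-Con hearts. The last value is WT-Con 5, and the log2 fold change of -0.59 (SE 0.40, adjusted p = 0.546) was -0.12 (adjusted p = 0.842) without WT-Con 5 and Fat1-IR 1. The remaining Z-disc members Ldb3, Myoz2, Myot, Pdlim5, Fhl2 and Synpo2l lay between -0.34 and -0.15 in WT-IR.

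Desmin was the other called gene. Des, the muscle intermediate filament, lies at chr1:75360329-75368579 (mm10, + strand) and 220 of its 3754 exon bases also belong to an antisense gene, which libraries counted without strand would not separate. Des had 296, 309, 312, 357 and 280.3 FPKM in WT-IR hearts, against 403, 399, 464, 415 and 826 FPKM in WT-Con hearts. The groups did not overlap, and WT-Con 5 stood far above the other 4. The log2 fold change was -0.63 (SE 0.17, adjusted p = 0.0376). Without WT-Con 5 alone it was -0.44 (adjusted p = 0.0176), which passes the p and not the fold threshold. With array weights Des was not called. The Des call was also lost with the replicate block (adjusted p = 0.0628), on the TPM scale (adjusted p = 0.067), without a filter on low values (adjusted p = 0.0876), with only the WT groups in the fit (adjusted p = 0.199) and, by the fold threshold, with scaling without the mitochondrial genome (-0.50). In *fat-1* hearts Des had 427, 322, 319, 321 and 307 FPKM with IR, against 369, 315, 339, 386 and 391 FPKM in Fat1-Con hearts, a log2 fold change of -0.09 (adjusted p = 0.855). Dmd, which encodes dystrophin, was at 3.72 to 5.54 FPKM in WT-IR and 1.71 to 6.48 FPKM in WT-Con hearts, where the low value was again WT-Con 5. Without WT-Con 5 and Fat1-IR 1, Dmd was lower in WT-IR by a log2 value of -0.36 (adjusted p = 0.041).

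Titin and the M-band genes showed small differences. Ttn, the giant spring, had 35.9, 35.7, 24.3, 43.8 and 29.8 FPKM in WT-IR, against 48.7, 49.96, 43.7, 41.6 and 15.8 FPKM in WT-Con hearts. It had 21.1, 37.6, 36.0, 36.6 and 34.8 FPKM in Fat1-IR, against 38.1, 40.4, 40.7, 44.3 and 46.3 FPKM in Fat1-Con hearts. The lowest Ttn value of each genotype was that of a heart with a low mitochondrial share, a control heart in WT and an IR heart in *fat-1*. With those left out, the log2 fold change of Ttn was -0.46 (adjusted p = 0.0232) in WT, and averaged over genotypes it was -0.34 (adjusted p = 0.0121). Myom1, the M-band crosslinker myomesin 1, was at 96.0 to 134 FPKM in WT-IR and 108 to 137 FPKM in WT-Con hearts (log2 fold change -0.25, adjusted p = 0.352). The WT-IR values of Myom1 were 107, 103, 102, 134 and 96.0 FPKM, the WT-Con values 137, 135, 134, 129 and 108 FPKM, and the groups overlapped through WT-IR 4 and WT-Con 5. Cmya5, or myospryn, showed -0.50 (adjusted p = 0.00273) in WT hearts without WT-Con 5 and Fat1-IR 1, against -0.24 (adjusted p = 0.636) with all hearts.

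Of the genes for turnover and assembly, the ubiquitin ligase Fbxo32 (atrogin-1) and the myosin chaperone Unc45b came nearest to the thresholds, Fbxo32 on the lower side in WT and Unc45b on the higher side in *fat-1* hearts. Fbxo32 had 13.9, 18.5, 13.5, 25.8 and 17.4 FPKM in WT-IR hearts, against 27.3, 31.5, 23.9, 23.9 and 28.5 FPKM in WT-Con hearts (log2 fold change -0.63, SE 0.19, adjusted p = 0.0648). The groups overlapped through WT-IR 4, the WT-IR heart with the highest Fbxo32. Leaving out that heart can only enlarge the difference, and the log2 fold change was then -0.77 (adjusted p = 0.0181). Fbxo32 was not called with any other single WT-IR or WT-Con heart left out. It was called without Fat1-IR 1 (-0.63, adjusted p = 0.0452). In *fat-1* hearts Fbxo32 showed -0.23 (adjusted p = 0.649), and 2 of the 5 Fat1-Con hearts were as low as the Fat1-IR hearts (19.8 and 19.1 FPKM). The genotype difference in the Fbxo32 response was 0.40 (SE 0.26, adjusted p = 0.831). Trim63 (MuRF1), the partner ligase, showed -0.28 (adjusted p = 0.559) in WT and 0.07 (adjusted p = 0.918) in *fat-1* hearts.

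Unc45b had 73.3, 45.6, 38.5, 56.2 and 38.3 FPKM in Fat1-IR hearts, against 35.4, 32.9, 33.1, 32.6 and 35.4 FPKM in Fat1-Con hearts. It had 31.5, 34.0, 34.8, 38.9 and 27.0 FPKM in WT-IR hearts, against 33.1, 31.6, 33.7, 31.0 and 40.2 FPKM in WT-Con hearts. All Fat1-IR hearts were above all Fat1-Con hearts, whereas WT-IR and WT-Con hearts overlapped widely. The log2 fold change was 0.53 (SE 0.15, adjusted p = 0.0697) in *fat-1* and -0.03 (SE 0.15, adjusted p = 0.953) in WT hearts. The test of the genotype difference, 0.56 (SE 0.21), gave an unadjusted p of 0.0144 and an adjusted p of 0.831. In Fat1-IR against WT-IR, Unc45b was higher by 0.56 (SE 0.15, adjusted p = 0.203). Without Fat1-IR 1 the IR response of Unc45b in *fat-1* hearts was 0.38 (adjusted p = 0.146), and it was called without Fat1-IR 3 (0.61, adjusted p = 0.0379) or Fat1-IR 5 (0.61, adjusted p = 0.0402). Overlapping genes on the other strand share 151 and 255 of its 4493 exon bases. Smyd1, the methyltransferase that works with Unc45b in myosin assembly, and Mylk3, the cardiac myosin light chain kinase, lay between -0.09 and 0.07 in both genotypes.

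In the thick filament the balance of the myosin heavy chains separated WT-IR from WT-Con hearts. Myh6 and Myh7 lie side by side on chromosome 14, at chr14:54941921-54966927 and chr14:54970684-54994626 (mm10, - strand). Myh7 was at 17.0, 19.0, 19.9, 29.0 and 21.7 FPKM in WT-IR, against 12.0, 17.4, 17.0, 15.7 and 16.5 FPKM in WT-Con hearts (log2 fold change 0.43, SE 0.19, adjusted p = 0.274). Myh6 had a log2 fold change of -0.26 (SE 0.16, adjusted p = 0.511). Neither gene passed alone, but a ratio within a heart does not depend on how the library is scaled. Myh7 was 0.789%, 0.947%, 0.985%, 0.992% and 1.07% of Myh6 in WT-IR hearts, against 0.464%, 0.611%, 0.64%, 0.568% and 0.699% in WT-Con hearts. The groups did not overlap (mean 0.957% ± 0.105 in WT-IR and 0.596% ± 0.088 in WT-Con, SD, n = 5 each), and the ratio was 1.61-fold higher in WT-IR. The exact two-sided permutation test gave p = 0.00794, the smallest it can give with 5 hearts against 5, and 0.127 after adjustment over the 16 ratio tests made.

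In *fat-1* hearts the ratio was 0.806%, 0.806%, 0.652%, 0.72% and 0.67% with IR, against 0.598%, 0.731%, 0.772%, 0.707% and 0.494% in Fat1-Con hearts, with overlap (1.12-fold, exact permutation p = 0.294). Fat1-IR hearts were lower than WT-IR hearts by a log2 value of -0.39 (exact permutation p = 0.0238, adjusted p = 0.19), and 2 Fat1-IR hearts lay within the WT-IR range. The difference between genotypes in the response to IR was -0.53 on the log2 scale, which gave p = 0.0132 in an exact permutation of genotype labels within Con and within IR hearts, and 0.0529 adjusted over the 4 ratios. This test was added after the ratios had been seen. Without WT-Con 5 and Fat1-IR 1 the WT difference was 0.75 and the Fat1-IR against WT-IR difference -0.42. Myh6 and Myh7 are close paralogs, and how reads matching both were counted is not given in the sources used here. Antisense genes share 142, 523 and 484 of the 8616 exon bases of Myh7, among them Mhrt.

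**Figure D3:**
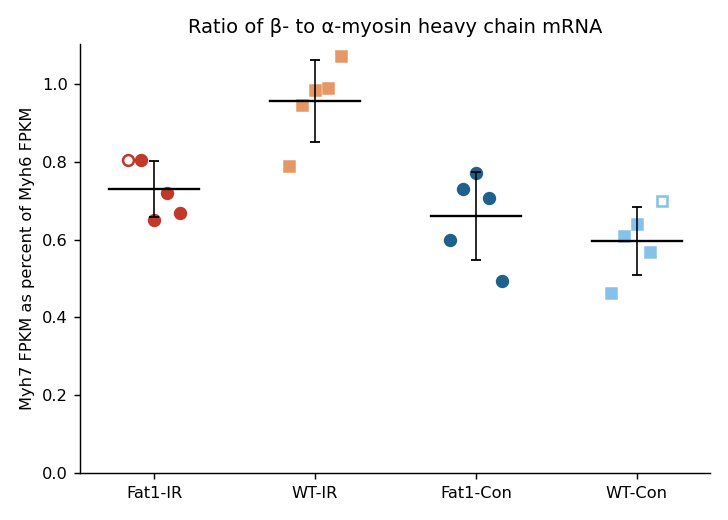
Myh7 FPKM as a percent of Myh6 FPKM (y axis, from 0) in each heart of the 4 groups; lines and bars are the mean and SD of 5 hearts, and open symbols are Fat1-IR 1 and WT-Con 5. WT-IR hearts lie at 0.789% to 1.07%, above all WT-Con hearts (0.464% to 0.699%), and Fat1-IR hearts lie between 0.652% and 0.806%.

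The other 3 ratios did not separate groups. Trim63 was 2.61 to 3.77 times Fbxo32 in Fat1-IR, 2.93 to 5.55 times in WT-IR, 1.97 to 3.30 times in Fat1-Con and 2.46 to 3.57 times in WT-Con hearts. The ratio of Tnni1 to Tnni3, the fetal to the adult troponin I, stayed under 0.015% in every heart, and its difference in WT hearts (0.58) had an exact permutation p of 0.0397, adjusted p = 0.212, and was 0.33 without WT-Con 5. Tnni1 lay near the pseudocount of 0.1 FPKM and under the minimum for testing, so this ratio is imprecise. Myh7b, a slow myosin expressed at a low level, had log2 fold changes of 0.06 in WT and -0.01 in *fat-1* hearts.

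The atrial light chains Myl7 and Myl4 varied more from heart to heart than any other tested member. Myl7 had 327, 75.9, 53.4, 56.1 and 83.3 FPKM in Fat1-IR hearts, against 67.5, 41.6, 56.3, 97.9 and 81.3 FPKM in Fat1-Con hearts. It had 165, 137, 24.8, 40.0 and 55.8 FPKM in WT-IR hearts, against 10.1, 52.7, 112, 17.8 and 176 FPKM in WT-Con hearts. In most of the hearts named next, Myl7 was high or low together with sarcolipin (Sln), 1 of the 6 atrial markers listed. No correlation was tested. Sln was at 29.3, 23.5 and 18.2 FPKM in Fat1-IR 1, WT-IR 1 and WT-IR 2, where Myl7 was high, and at 1.39 and 2.40 FPKM in WT-Con 1 and WT-Con 4, the hearts with the lowest Myl7. WT-Con 5 had more Myl7 (176 FPKM) for its Sln (11.9 FPKM) than hearts with like Sln. The mean log2 level of the 6 atrial markers was highest in Fat1-IR 1 (4.51) and lowest in WT-Con 1 (0.82), as was Myl7. But it was higher in WT-Con 3 (4.18) and Fat1-Con 4 (3.95) than in WT-IR 1 (3.73) and WT-IR 2 (3.01), which had more Myl7. With all hearts the log2 fold changes of Myl7 were 0.55 (SE 0.69) in WT and 0.46 (SE 0.69) in *fat-1* hearts, smaller than their standard errors. How much atrial tissue each sample held was not recorded in the labels, and its part in these values was not tested.

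**Figure D4:**
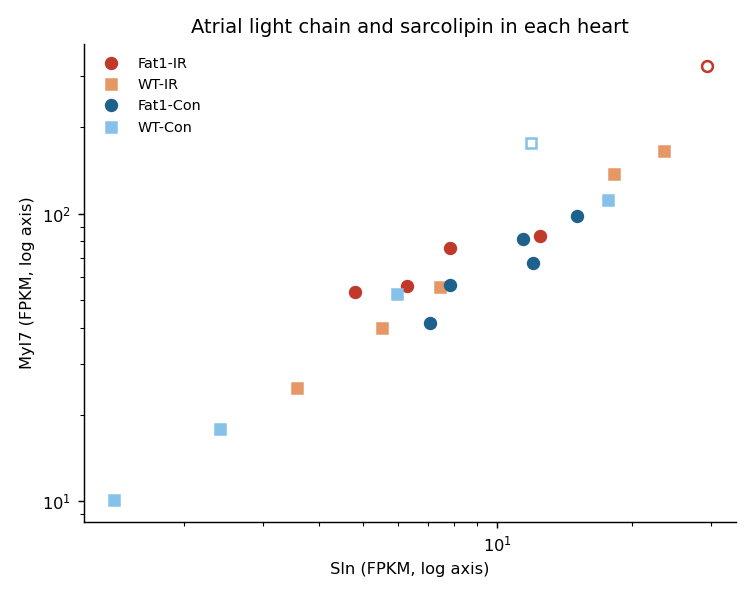
Myl7 FPKM (y axis, log scale) against Sln FPKM (x axis, log scale), 1 point a heart, colored by group, with open symbols for Fat1-IR 1 and WT-Con 5. Hearts of all groups lie along 1 rising band, from WT-Con 1 (Myl7 10.1, Sln 1.39) to Fat1-IR 1 (Myl7 327, Sln 29.3), and WT-Con 5 lies above it.

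WT-Con 5 and Fat1-IR 1 departed from their groups in a way that split the list by transcript. In WT-Con 5, 22 of 38 members were above, 10 below and 6 within the range of the other 4 WT-Con hearts. Most short transcripts were high there. Folds here are relative to the geometric mean of the other 4 hearts. Tcap (exon length 948 bases) was 5.17-fold, Tnni3 (2063 bases) 4.11-fold, Tnnc1 (1041 bases) 3.89-fold and Myl2 (1950 bases) 3.07-fold. The longest transcripts were low, with Dmd (23801 bases) at 0.298-fold, Ttn (116825 bases) at 0.347-fold, Cmya5 (11850 bases) at 0.407-fold and Nebl, whose product nebulette binds actin near the Z-disc (15235 bases), at 0.478-fold. Among other long transcripts Tnnt2 (7752 bases, 2.41-fold) and Tpm1 (6485 bases, 1.96-fold) were high.

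The median log2 difference of WT-Con 5 was 1.54 for the 13 members under 3 kb of exon and 0.08 for the 24 longer ones, and over all tested nuclear genes it was 0.43 and -0.22. Lmod2 (1976 bases, 0.747-fold) was low although short, Myot (2209 bases, 0.90-fold) was within the range of the other hearts, and Tmod1 was among the lowest (3946 bases, 0.345-fold, with 1287 of its exon bases shared with Tstd2 on the other strand). In Fat1-IR 1, 31 members were above, 4 below and 3 within the other 4 Fat1-IR hearts, and the contrast by length was smaller (0.65 under 3 kb, 0.48 above). There Myl4 was 6.26-fold and Ttn 0.584-fold. Fragment sizes and RNA integrity per sample were not analysed here, and their part in this was not tested.

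**Figure D5:**
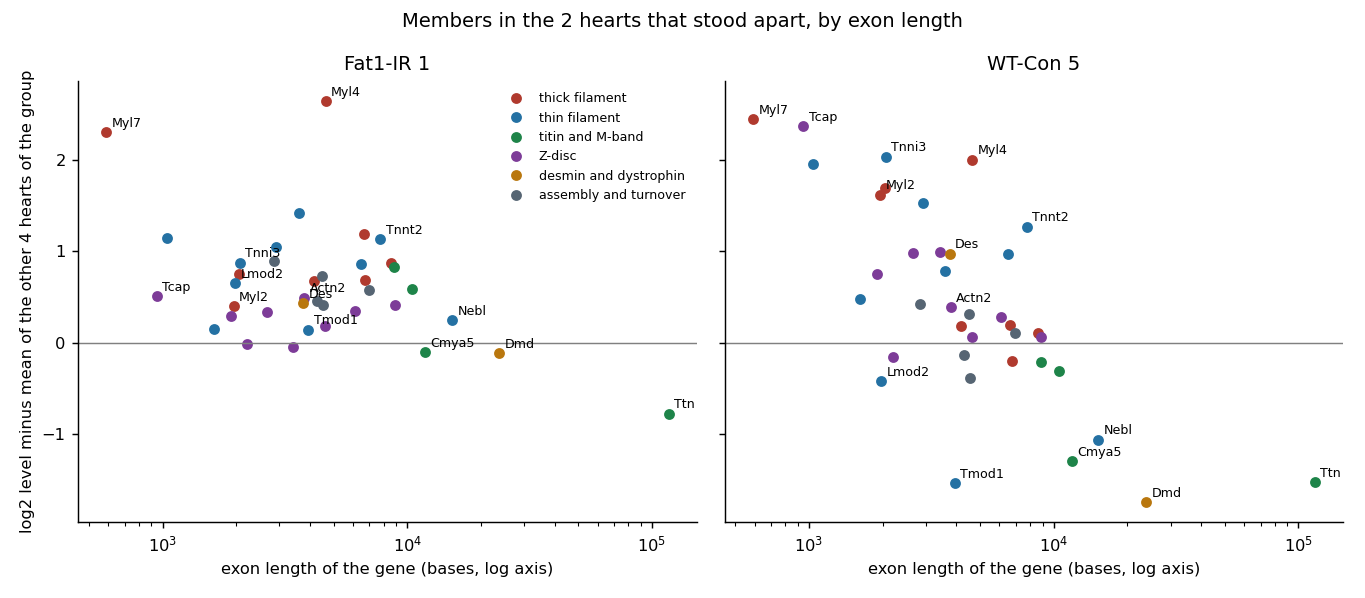
Log2 level in Fat1-IR 1 (left) and WT-Con 5 (right) minus the mean of the other 4 hearts of the group (y axis) against exon length in bases (x axis, log scale), 1 point for each of the 38 members, colored by role. In WT-Con 5 the members under 3 kb lie above 0, except Lmod2 and Myot, and the longest (Cmya5, Nebl, Dmd and Ttn) lie below it.

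With those hearts left out, members with longer exons had lower median IR differences in both genotypes. In WT hearts this order was not present with all hearts. In WT-IR against WT-Con the median log2 fold change was -0.00 for the 13 members under 3 kb, -0.15 for the 10 of 3 to 6 kb and -0.23 for the 14 of 6 kb or more. Over all tested nuclear genes the same classes had 0.14, 0.05 and -0.02. The members' median thus lay below that of all genes in each length class. In *fat-1* hearts the members' medians were 0.08, -0.03 and -0.10, and those of all genes 0.09, 0.01 and -0.04. With all hearts, the order in WT hearts was reversed. The members' medians there were -0.27, -0.13 and -0.12, and those of all genes 0.02, 0.03 and 0.06. In *fat-1* hearts the members' medians with all hearts kept the order, at 0.20, 0.05 and -0.02.

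The remaining comparisons asked whether the genotype changed these genes. In Fat1-IR against WT-IR, 0 of 37 members were called (0.0604% of all genes were called higher and 0.0439% lower), and 4 had an unadjusted p under 0.05, beside 6.81% of all genes. These were Unc45b, Synpo2l, Pdlim5 and Actn2, the last 3 of the Z-disc. The log2 difference was above 0 for 32 of 37 members (median 0.21, all genes 0.03), including all 9 thin filament and all 9 Z-disc genes tested. Without WT-Con 5 and Fat1-IR 1 it was above 0 for 24 of 37 (median 0.06, all genes -0.03), and with scaling without the mitochondrial genome for 25 of 37, then with 3 Z-disc and 2 thin filament genes below 0. In the same comparison all 6 endothelial, all 6 fibroblast and all 6 macrophage markers were below 0 (medians -0.20, -0.28 and -0.41), and 8 of 10 cardiomyocyte markers outside the sarcomere were above 0 (median 0.12). Their part in the members' values was not tested. Synpo2l, a Z-disc protein related to synaptopodin, was at 43.1, 43.0, 28.9, 46.6 and 36.2 FPKM in Fat1-IR, against 27.9, 36.4, 25.7, 29.4 and 21.1 FPKM in WT-IR hearts, with overlap (log2 0.49, SE 0.18, adjusted p = 0.499).

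In Fat1-Con against WT-Con, 0 members were called (0.022% of all genes higher, 0.00549% lower). Des was the only member with an unadjusted p under 0.05, beside 5.63% of all genes. Its log2 difference was -0.42 (SE 0.17, adjusted p = 0.757), and -0.23 without WT-Con 5. For the interaction, the IR response in *fat-1* minus that in WT hearts, 0 members were called (0.00549% of all genes higher, 0% lower), and 4 had an unadjusted p under 0.05, beside 5.31% of all genes. The interaction was above 0 for 30 of 37 members, with a median of 0.31, against 0.13 and 24 of 37 without WT-Con 5 and Fat1-IR 1. These comparisons share hearts with those above, so their values are not independent of them.

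Other genes of the same structures, from lists outside the 38, included larger changes. Of 17 tested further Z-disc genes, 2 were lower in WT-IR, beside 1.19% of all genes. Flnc, the filamin of the Z-disc, had 58.0, 82.0, 66.4, 59.4 and 35.7 FPKM in WT-IR, against 179, 109, 279, 167 and 75.5 FPKM in WT-Con hearts (log2 -1.34, SE 0.28, adjusted p = 0.00886). Xirp2, an actin-binding Xin repeat protein, showed -1.30 (adjusted p = 0.00498) in WT and -1.19 (adjusted p = 0.0127) in *fat-1* hearts, and Pdlim3, a Z-disc LIM protein, was higher in Fat1-IR (0.82, adjusted p = 0.00661).

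Among 12 tested turnover and chaperone genes, 1 was lower and 1 higher in WT-IR, beside 1.19% and 2.01% of all genes. Of the same genes, 3 were higher in Fat1-IR, beside 1.3% of all genes. Klhl41, a kelch protein of the sarcomere, showed -1.10 (adjusted p = 0.0303) in WT hearts. The chaperone Hsp90aa1, which works with Unc45b in folding myosin, had 494, 362, 282, 300.3 and 386 FPKM in Fat1-IR, against 73.7, 51.2, 45.1, 51.0 and 73.6 FPKM in Fat1-Con hearts (log2 2.63, SE 0.29, adjusted p = 3.3e-05). In WT hearts it rose by 1.17 (adjusted p = 0.0267). Hsp90ab1 (0.76, adjusted p = 0.00803) and Bag3, the co-chaperone of Z-disc protein quality control (1.27, adjusted p = 0.000682), were called in Fat1-IR and not in WT-IR (0.16 and 0.15). The genotype differences of these responses had unadjusted p of 0.0022 for Hsp90aa1, 0.0119 for Hsp90ab1 and 0.000549 for Bag3, and none passed the adjustment (adjusted p of 0.831, 0.831 and 0.805). The mean log2 level of the turnover and chaperone list was 5.01 in Fat1-IR 1, against 4.52 to 4.68 in the other Fat1-IR hearts. Fold changes of the genes outside the 38 are not given here without WT-Con 5 and Fat1-IR 1.

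Of 12 tested myofilament kinases and phosphatases, 1 was lower in WT-IR, beside 1.19% of all genes. This was Prkcd (protein kinase C δ, log2 -0.61, adjusted p = 0.00713). It had 3.22, 3.69, 3.43, 2.79 and 3.12 FPKM in WT-IR against 5.09, 5.29, 4.52, 4.72 and 5.36 FPKM in WT-Con hearts, without overlap. None of the 9 dystrophin complex partners and none of the 17 tested further filament and M-band genes was called in either genotype. Of the 10 cardiomyocyte genes outside the sarcomere, 0 were called, with a median of -0.22 in WT-IR against WT-Con and -0.11 in Fat1-IR against Fat1-Con. The median of the 37 members in WT hearts was -0.20.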

How the data were processed

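RNA-seq of 20 mouse hearts (5 in each of 4 groups, assigned from the labels) was deposited as a table of FPKM per gene. Per the labels and the methods of the study, the authors extracted RNA with TRIzol, aligned reads to mm10 with HISAT2 and counted them with featureCounts (versions and the strand setting not given in the sources used here), and deposited FPKM values. FPKM multiplied by GENCODE M21 exon length gave whole fragments (within 0.02, for values under 1000 fragments) for 30746 of 31217 genes with a length, or 98.49%, which gave the depths. FPKM is not a count, so tests ran on log2(FPKM + 0.1) for the 18219 genes averaging 0.1 FPKM or more, with limma 3.58.1 in R 4.3.3 (4 groups in 1 fit, variance trend, two-sided, Benjamini-Hochberg). Calls needed a fold change over 1.5 and an adjusted p under 0.05. Fold changes on this scale are understated for low genes. The p-values of the fit rest on 1 estimate per gene of the spread between hearts, shared by the 4 groups. They therefore do not measure the spread of the compared groups alone. Ratios were compared by exact permutation over 252 splits (Python 3.11.15). The fit was also run on simulated counts with planted changes, and the outcome is not given here. No simulated library stood apart in composition, so that run does not bear on the effect of WT-Con 5 and Fat1-IR 1.

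Every member could be named. Values per heart were given for each called member and for the member with the smallest p of each role group, and others were added after their values were seen. The members and gene lists were chosen with earlier results of these data known. The alternatives were other pseudocounts, filters, thresholds, scalings, weights and fits, a replicate block, and leaving out hearts.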

Additional observations from a re-analysis of the deposited data

Results flagged for a closer look

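In 48 groups of 5 hearts tested, 12 had a highest or lowest heart whose gap to its nearest neighbor, divided by the range of the group, was above Dixon's critical value of 0.71. Chance flags about 1 in 20 groups, and groups of genes from the same heart are not independent.

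In the Fat1-IR group, 6 of these belonged to heart 1. Its Des was 427 FPKM (307 to 322 FPKM in the other 4), its Actn2 497 FPKM (335 to 367 FPKM) and its Myom1 173 FPKM (113 to 122 FPKM). Its Myl7 was 8.74% of Myl2 (1.98% to 2.72%). The members took 10.4% of its fragments (6.60% to 7.02%), and the mitochondrial genome 13.9% (31.0% to 36.7%).

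In the WT-IR group, the members took 8.15% of the fragments of heart 4, against 6.19% to 6.47% in the other 4.

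In the WT-Con group, 5 belonged to heart 5. Its Des was 826 FPKM (399 to 464 FPKM in the other 4) and its Actn2 552 FPKM (406 to 433 FPKM), whereas its Myom1 was low, at 108 FPKM (129 to 137 FPKM). The members took 12.0% of its fragments (6.96% to 7.58%), and the mitochondrial genome 15.1% (31.5% to 33.8%).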

How the results depend on the processing

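The 2 members called lower in WT-IR were 0 with a fold change over 2 and with only the groups of the comparison, 1 without a filter, on the TPM scale, with scaling without the mitochondrial genome and with the replicate block, 3 with no fold threshold (Actn2 added) and with median-of-ratios scaling or voom on fragments (Fbxo32 added), and 9 without WT-Con 5 and Fat1-IR 1 and no fold threshold, an alternative chosen after seeing the data. Leaving out each heart gave 1 to 3. Des was lost as a call in each of these settings that gave 1 and without WT-Con 5, WT-Con 3 or any of WT-IR 1, 2, 3 and 5. Des was also lost with array weights, where the count stayed at 2 because Fbxo32 was called. Over all genes, the number lower in WT-IR was 216 in the main fit, 112 with a fold change over 2 and 74 with only the groups compared. It was 172 without a filter, 207 on the TPM scale, 159 without the mitochondrial genome and 196 with the replicate block. It was 254 with no fold threshold, 255 with median-of-ratios scaling, 233 with voom and 351 with array weights. Without the 2 hearts and no fold threshold it was 720. In Fat1-IR against Fat1-Con, the count of members lower was 1, not 0, with median-of-ratios scaling (208 higher and 177 lower over all genes, against 236 and 128), with scaling without the mitochondrial genome, with array weights, and without WT-Con 5 and Fat1-IR 1, with or without the fold threshold, and also without Fat1-IR 4. Leaving out each heart gave 0 to 1 lower and 0 to 1 higher. The number of all genes lower in Fat1-IR was 145 with scaling without the mitochondrial genome and 317 with array weights. Without the 2 hearts it was 206, or 349 with no fold threshold, and 243 without Fat1-IR 4 as well. Averaged over genotypes, 1 lower became 2 with no fold threshold, 0 with a fold over 2, and 11 lower and 1 higher without the 2 hearts and no fold threshold. In the same order, all genes lower went from 270 to 477, 102 and 1236, the last with 1573 higher. The interaction median of 0.31 was 0.11 with scaling without the mitochondrial genome and 0.11 with those 2 hearts and Fat1-IR 4 left out.

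Ratios with no call changed sign. Tnni1 to Tnni3 in Fat1-IR against Fat1-Con was -0.15 with a pseudocount of 1, and in Fat1-IR against WT-IR -0.10 with that pseudocount, -0.039 without the 2 hearts, -0.000124 without the 3, and -0.039 to 0.15 leaving out each heart. Myl7 to Myl2 in Fat1-IR against Fat1-Con was -0.12 without the 2 hearts, -0.062 without the 3, and -0.12 to 0.42 leaving out each heart. The cause of these changes was not tested.

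The correlation of the deviations of same-numbered hearts was -0.137 to 0.0604 over 30 pairs. Such a correlation over all genes cannot show whether these hearts shared more than a number. With the replicate block, 1 member was called lower in WT-IR, beside 196 of 18219 genes. Low expression limited Tnni1, which was not tested alone.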
